A study of Mus musculus with 10 samples.

Results

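Lines of a mouse acute lymphoblastic leukaemia that had grown out under dasatinib at the first dose step were set against the untreated parental line, across all genes. The members were the 3 dasatinib 1x libraries (A, B and C) and the 2 parental libraries (A and B), chosen by their labels, which is 5 of the 10 libraries of the series. Every group carries BCR-ABL1 p185 in a single murine Ph+ cell line cultured in RPMI medium with serum. The dasatinib 1x cells had regrown to high density at 1x of the IC90, the concentration taken to inhibit 90% of the cells, while the parental cells received no treatment. The series also holds 3 dasatinib 16x libraries and 1 library each of lines carried with the solvent DMSO to the 1x and 16x steps. Their levels were left out of the comparison with the parental line and are given beside it. All 10 libraries were fitted together, so the spread behind its p-values also draws on the dasatinib 16x libraries. All comparisons rest on one leukaemia line. The labels call the dasatinib libraries biological replicates and the parental ones replicates without tying them to separate cultures. The p-values therefore cover the spread between these libraries, which may be technical. The age and strain of the source animal are not given in the sources used here.

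BCR-ABL1 is the fusion kinase of the Philadelphia chromosome. It is constantly active and signals through STAT5, RAS and ERK, and PI3K and AKT, which in B cell progenitors supports survival, nutrient uptake and growth. Dasatinib occupies the ATP site of ABL and of the SRC family kinases. A line that grows out under it can do so by a change in the kinase itself or by other routes, and RNA levels alone do not tell these apart.

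Libraries dasatinib 1x A, B and C held 31695307, 40185039 and 39832388 counts, against 29049760 and 41349084 in parental A and B. Of 29955 listed genes, 12136 had enough counts in these 5 libraries to be tested. Levels are given as counts scaled to a fixed library size (CPM), which are not divided by gene length, so they are compared between libraries and not between genes. The label of a B cell progenitor leukaemia was checked against markers. Of 10 B lineage markers, 9 were well above 1 CPM in every library, and Ebf1, a transcription factor of early B cells, stood at only 0.201 to 0.715 CPM. Of 8 T cell markers, 5 stayed under 1 CPM, and 3 of these (Cd3e, Cd4 and Cd8a) had no count in any of the 5 libraries. The others were Zap70 (12.9 to 21.9 CPM), Lat (0.748 to 1.58 CPM) and Cd5 (0.929 to 1.36 CPM). Of the myeloid markers 9 of 10, of the erythroid and megakaryocytic markers 9 of 10, and of the stromal markers 7 of 7 stayed under 1 CPM. The exceptions were the myeloid marker Lyz2 (5.08 to 6.53 CPM) and the erythroid marker Hbb-b1 (3.50 to 4.39 CPM).

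No change was called in the RNA of the drug's target. Abl1 had 197, 201 and 196 CPM in dasatinib 1x A, B and C, against 202 and 198 CPM in parental A and B. The groups overlapped, and the log2 change was -0.01 ± 0.03 (SE, adjusted p = 0.868 by the quasi-likelihood test of edgeR; 0.705 to 0.996 over all alternative settings). Reads of the fusion transcript and of the normal Abl1 transcript cannot be told apart in these counts, and sequence changes of the kinase were not analysed here.

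Of the 12136 tested genes, 711 differed between dasatinib 1x and parental cells (5.86%), with an adjusted p under 0.05 in the quasi-likelihood test of edgeR. Of these, 365 rose (3.01%) and 346 fell (2.85%). The sizes differed by direction. The median log2 change was 0.27 among the genes that rose and -1.15 among those that fell, and 48 rose and 182 fell by at least 2-fold. Of the genes that rose, 279 changed by less than 1.5-fold, and of those that fell, 129. Of the 346 genes that fell, 155 averaged under 1 CPM in dasatinib 1x cells and 71 under 1 CPM in both groups. Their median parental level was 5.78 CPM, against 49.1 CPM for the genes that rose. Where a gene reached 5 CPM in at least one group, 22 rose and 29 fell by 2-fold or more. All 711 called genes had dasatinib 1x libraries entirely above or entirely below the parental ones, but so had 46.5% of all tested genes. The median log2 change of all tested genes was 0.0014. The number of called genes depended on each library: it was 390, 378 and 410 without dasatinib 1x A, B or C, and 163 and 152 without parental A or B.

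**Figure D1:**
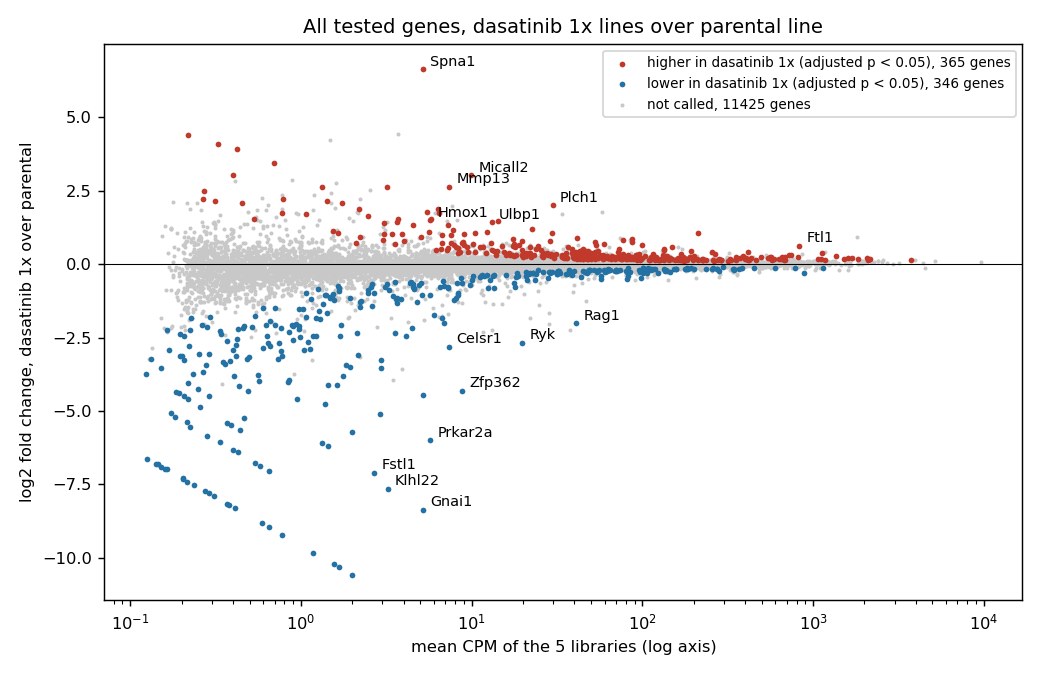
Log2 fold change of the dasatinib 1x lines (n = 3) over the parental line (n = 2) for each of 12136 tested genes, against the mean CPM of the 5 libraries on a log axis. The 365 genes that rose (red) mostly lie close to 0, while the 346 that fell (blue) reach further at low CPM; the diagonal strings at the lower left are genes with 0 or very few counts in dasatinib 1x cells, whose fitted values are not measured folds.

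On the first principal component of the 5 libraries, which held 68.5% of the variance, dasatinib 1x A, B and C stood at -22.0, -25.8 and -18.8 and parental A and B at 33.6 and 33.0. The second, at 15% of the variance, held dasatinib 1x B (-22.5) apart from dasatinib 1x A (12.4) and C (12.4). The differences between the 3 dasatinib 1x libraries are described after the gene groups.

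The 10 highest genes among those that reached 5 CPM come first, without grouping by function. Spna1, the erythroid alpha chain of spectrin, a protein of the membrane skeleton, had 10.7, 8.41 and 6.75 CPM in dasatinib 1x A, B and C, against 0.034 and 0.119 CPM in parental A and B. Its reads were close to absent from the parental cells and also from the DMSO 1x (0.0548 CPM) and DMSO 16x (0 CPM) lines. The log2 change was 6.63 ± 0.82 (adjusted p = 0.00721). Of the erythroid and megakaryocytic marker list, which does not include Spna1, 4 genes passed the filter and 0 of them were called by edgeR, DESeq2 or limma-voom, or had an unadjusted p under 0.05. The summed level of that list was 4.73 to 6.03 CPM in dasatinib 1x cells and 5.77 to 5.88 CPM in parental cells.

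Micall2, which encodes a binding partner of RAB proteins, had 14.4, 19.9 and 11.7 CPM in dasatinib 1x A, B and C, against 1.6 and 2.12 CPM in parental A and B (log2 change 3.03 ± 0.34, adjusted p = 0.00404). Micall2 is a chromosome 5 gene, and that chromosome is described at the end. Mmp13, a collagenase that cleaves extracellular matrix, had 11.8, 12.4 and 9.19 CPM in dasatinib 1x A, B and C, against 1.8 and 1.76 CPM in parental A and B. Its level in the DMSO lines lay below the parental one, at 0.960 CPM for DMSO 1x and 0.0808 CPM for DMSO 16x. The log2 change over the parental line was 2.64 ± 0.25 (adjusted p = 0.000309).

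Ulbp1, a cell surface ligand of the NKG2D receptor by which natural killer cells recognise stressed cells, had 16.8, 17.0 and 18.7 CPM in dasatinib 1x A, B and C, against 6.53 and 6.51 CPM in parental A and B. The log2 change was 1.43 ± 0.11 (adjusted p = 2.03e-05), and the DMSO 1x line lay between the groups at 9.35 CPM. Slc22a8, a transporter of organic anions, had 7.27, 8.19 and 7.48 CPM in dasatinib 1x A, B and C, against 2.52 and 1.96 CPM in parental A and B (log2 change 1.79 ± 0.22, adjusted p = 0.00131). Plch1, a phospholipase C, had 41.4, 44.7 and 41.7 CPM in dasatinib 1x A, B and C, against 10.6 and 10.6 CPM in parental A and B (log2 change 2.01 ± 0.08, adjusted p = 1.17e-07). Its rise was shared by lines without drug, at 27.9 CPM in DMSO 1x and 51.0 CPM in DMSO 16x, and with parental and DMSO lines pooled as one drug-free class it was not called (adjusted p = 0.398, the highest of all alternatives, with 9.71e-86 the lowest).

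The rest of the 10 highest were B3galt5, a galactosyltransferase, Rhob, a small GTPase, Hmox1, described with the iron genes, and Pde10a, a cyclic nucleotide phosphodiesterase. The log2 changes were 1.88 ± 0.28 for B3galt5, 1.53 ± 0.24 for Rhob and 1.47 ± 0.19 for Pde10a (adjusted p = 0.00911, 0.00406 and 0.00319). The calls of Spna1, Micall2, B3galt5, Rhob and Pde10a were lost without parental A (adjusted p = 0.0807, 0.0578, 0.088, 0.0595 and 0.0577) and without parental B (0.0949, 0.0522, 0.143, 0.104 and 0.0806). Over all alternatives their adjusted p reached down to 1.64e-19, 2.62e-29, 3.15e-12, 5.4e-08 and 6.99e-13, and up to 0.137, 0.0578, 0.143, 0.104 and 0.0806. With limma-voom the calls of Spna1, Micall2 and B3galt5 were also lost (adjusted p = 0.137, 0.0569 and 0.143). Pde10a lost its call with the pooled drug-free class too (adjusted p = 0.0633 by edgeR). The DMSO 1x and 16x lines held Pde10a at 12.4 and 11.1 CPM, against 7.11 and 6.77 CPM in parental A and B. Mmp13, Slc22a8, Hmox1 and Ulbp1 kept their calls under every alternative run.

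The 10 lowest genes that reached 5 CPM follow without grouping by function. Gnai1, an inhibitory G protein alpha subunit, had 0.0316, 0.0502 and 0.0252 CPM in dasatinib 1x A, B and C, which is a handful of reads, against 12.7 and 12.9 CPM in parental A and B. The DMSO 1x line had 6.58 CPM and the DMSO 16x line 0.323 CPM. The fitted log2 change was -8.35 ± 0.39 (adjusted p = 7.29e-07). Gng12, a G protein gamma subunit, had 0.695, 0.603 and 0.378 CPM in dasatinib 1x A, B and C, against 12.6 and 11.7 CPM in parental A and B (log2 change -4.45 ± 0.25, adjusted p = 1.99e-06). It too was lower in both DMSO lines, at 5.04 and 0 CPM, and with the pooled drug-free class the call was lost (adjusted p = 0.166, the highest of all alternatives, with 4.9e-38 the lowest). Prkar2a, a regulatory subunit of protein kinase A, had 0.158, 0.326 and 0.151 CPM in dasatinib 1x A, B and C, against 14.1 and 13.9 CPM in parental A and B (log2 change -6.00 ± 0.67, adjusted p = 0.00721). The DMSO lines held Prkar2a at 20.3 and 31.3 CPM.

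Klhl22, an adaptor of a ubiquitin ligase, had 0.126, 0 and 0 CPM in dasatinib 1x A, B and C, against 8.37 and 7.61 CPM in parental A and B (fitted log2 change -7.66 ± 0.64, adjusted p = 0.00162). Fstl1, a secreted glycoprotein, had 0.126, 0 and 0.0252 CPM in dasatinib 1x A, B and C, against 6.63 and 6.63 CPM in parental A and B (fitted log2 change -7.10 ± 0.36, adjusted p = 1.72e-05). Fstl1 differed in the other direction in the lines without drug, at 43.7 CPM in DMSO 1x and 100 CPM in DMSO 16x. So did Actn1, the actin crosslinker alpha-actinin 1, which had 0.601, 0.452 and 0.629 CPM in dasatinib 1x A, B and C, against 6.39 and 6.70 CPM in parental A and B (log2 change -3.55 ± 0.49, adjusted p = 0.0155), with 33.9 CPM in DMSO 1x and 99.2 CPM in DMSO 16x.

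Celsr1, a cadherin of planar cell polarity, had 2.40, 1.71 and 2.39 CPM in dasatinib 1x A, B and C, against 15.5 and 14.9 CPM in parental A and B (log2 change -2.81 ± 0.22, adjusted p = 6.46e-05). Zfp362, a zinc finger gene, fell by 4.31 ± 0.44 on the log2 scale (adjusted p = 0.00447), and Capn1, the protease calpain 1, by 5.12 ± 0.62 (adjusted p = 0.00852).

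Gnai1, Klhl22, Fstl1, Zfp362 and Celsr1 kept their calls under every alternative run. The calls of Prkar2a, Capn1 and Actn1 were lost without parental A (adjusted p = 0.0675, 0.066 and 0.0965) and without parental B (0.0809, 0.0913 and 0.132). Capn1 also lost it without dasatinib 1x C (0.0506), and Actn1 without dasatinib 1x A, B or C (0.0691, 0.0764 and 0.0668). The adjusted p of these 3 genes ranged down to 2.97e-14, 3.16e-11 and 1.26e-10 over all alternatives.

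Both sets were also set against the DMSO 1x line, which had been cultured to the same step without drug and which shares the dasatinib 1x libraries with the comparison above. Of the 10 highest genes 9 were also called higher against DMSO 1x, and of the 10 lowest all 10 were called lower. Across all genes, 1625 were called against DMSO 1x (13.4%), 814 higher (6.71%) and 811 lower (6.68%). The DMSO 1x line itself differed from the parental line at 742 genes (6.11%), 418 higher (3.44%) and 324 lower (2.67%). Of the 10 genes highest in dasatinib 1x cells 2 were also called higher in DMSO 1x than in parental cells, and of the 10 lowest 1 was also called lower there and 2 were called higher. At the later step, 1624 genes differed between dasatinib 16x and 1x lines (13.4%), 878 higher (7.23%) and 746 lower (6.15%), and of the 20 genes above 8 were among them.

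**Figure D2:**
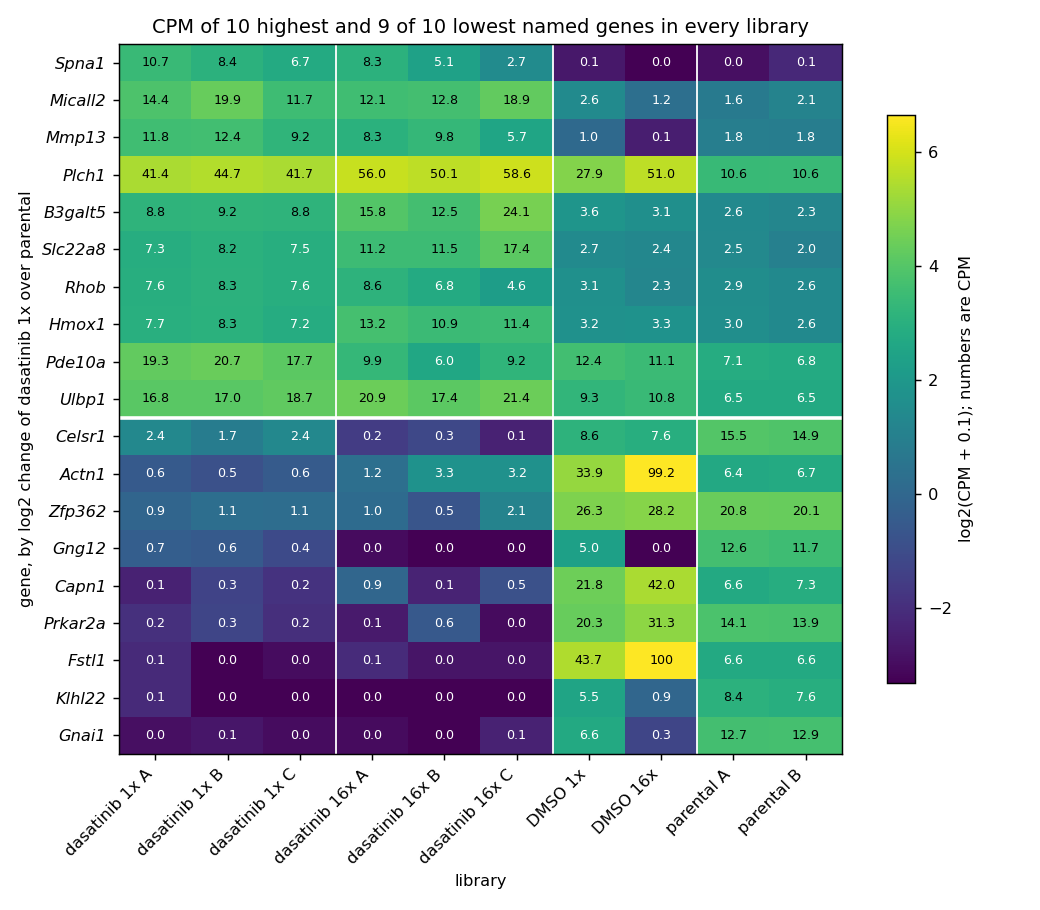
CPM of the 10 highest and 9 of the 10 lowest genes of the comparison in each of the 10 libraries, dasatinib lines on the left, DMSO lines and parental line on the right; colour is log2(CPM + 0.1) and the numbers are CPM. Fstl1, Actn1, Capn1, Prkar2a and Zfp362 stand above the parental line in both DMSO lines and below it in all 6 dasatinib libraries, while Plch1 stands above the parental line in every other library.

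Of 25 tested genes of glycolysis and of the hypoxia response 15 rose and 1 fell, with a median log2 change of 0.22, where 3.01% and 2.85% of all tested genes rose and fell. Glycolysis turns glucose into pyruvate and lactate, and most of its enzymes are targets of the hypoxia-inducible factors. The summed level of the list was 10656 to 11091 CPM in dasatinib 1x cells and 9043 to 9153 CPM in parental cells.

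The genes that rose ran along the pathway. They included the glucose transporter Slc2a1, the hexokinase Hk1, the isomerase Gpi1, the phosphofructokinases Pfkl and Pfkp, and Aldoa, Tpi1, Gapdh, Pgk1, Pkm2 and Ldha of the later steps. They also included Pdk1, a kinase that inhibits pyruvate dehydrogenase, the prolyl hydroxylase P4ha1, the mitophagy gene Bnip3 and the vessel growth factor Vegfa. Aldoa, aldolase A, had 1225, 1281 and 1230 CPM in dasatinib 1x A, B and C, against 976 and 949 CPM in parental A and B (log2 change 0.37 ± 0.03, adjusted p = 6.42e-05). Pfkp had 276, 278 and 294 CPM in dasatinib 1x A, B and C, against 212 and 213 CPM in parental A and B (log2 change 0.41 ± 0.04, adjusted p = 8.74e-05). Bnip3 had 216, 215 and 211 CPM in dasatinib 1x A, B and C, against 159 and 159 CPM in parental A and B (log2 change 0.43 ± 0.05, adjusted p = 0.000551). In each of these genes the groups were well apart, and the changes were of moderate size. Hk2, Pgam1 and Egln1 of the same list were not called, at log2 changes of 0.09, 0.12 and 0.16.

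The list also stood higher in DMSO 1x than in the parental line. Its summed level in DMSO 1x was 12048 CPM, and against the parental line 20 of the 25 tested members were called higher and 0 lower there, with a median log2 change of 0.43. Set directly against DMSO 1x, the dasatinib 1x lines had 1 member of the list called higher and 14 lower, with a median of -0.19. With the parental and DMSO libraries pooled as the drug-free class, 0 members were called higher. Ldha, lactate dehydrogenase A, had 1703, 1749 and 1649 CPM in dasatinib 1x A, B and C, 2002 CPM in DMSO 1x, and 1480 and 1445 CPM in parental A and B. Hk1, which phosphorylates glucose, was the 1 member called higher against both lines, with 62.7, 64.8 and 59.4 CPM in dasatinib 1x A, B and C, 39.8 CPM in DMSO 1x, and 41.7 and 38 CPM in parental A and B. The member that fell was Slc2a3, a neuronal type glucose transporter, which had 0, 0.0251 and 0 CPM in dasatinib 1x A, B and C, 7.79 CPM in DMSO 1x, and 0.646 and 0.739 CPM in parental A and B. Leaving out parental A or parental B brought the count of members that rose to 7 or 8, and leaving out dasatinib 1x A, B or C to 15, 14 and 14. Among the genes given above, the calls of Hk1 and Ldha were lost without parental A (adjusted p = 0.0675 and 0.0929) and without parental B (0.154 and 0.184), and that of Hk1 without dasatinib 1x B (0.0537); the lowest over all alternatives were 2.36e-09 and 1.88e-06. Aldoa, Pfkp and Bnip3 kept their calls without any 1 of the 5 libraries, and Slc2a3 did too.

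Genes of the amino acid stress response are induced by the transcription factor ATF4 when amino acids run short. Of 31 tested members 13 rose against the parental line, 1 fell and 17 were not called, with a median log2 change of 0.18. The share called was 45.2%, beside 5.86% of all tested genes. The summed level was 8726 to 8862 CPM in dasatinib 1x cells, 8187 CPM in DMSO 1x, 8551 CPM in DMSO 16x and 7827 to 7901 CPM in parental cells, so that both lines without drug also stood above the parental line. The members that rose were the amino acid transporters Slc7a5, Slc3a2 and Slc7a1, the asparagine, serine and proline enzymes Asns, Phgdh and Pycr1, the one-carbon enzymes Shmt2 and Mthfd2, the aminoacyl-tRNA synthetases Sars and Gars, and the regulators Atf5, Ddit4 and Ppp1r15a. Slc7a5, the leucine importer that pairs with Slc3a2, had 877, 863 and 875 CPM in dasatinib 1x A, B and C, against 741 and 730 CPM in parental A and B (log2 change 0.25 ± 0.04, adjusted p = 0.00241). Atf5, an ATF4 target and itself a transcription factor, had 117, 115 and 119 CPM in dasatinib 1x A, B and C, against 73.0 and 75.5 CPM in parental A and B (log2 change 0.65 ± 0.09, adjusted p = 0.00649). Asns, which makes asparagine, had 432, 420 and 429 CPM in dasatinib 1x A, B and C, against 380 and 367 CPM in parental A and B (log2 change 0.19 ± 0.04, adjusted p = 0.0189). In these genes the groups did not overlap, and Atf5 had the greatest log2 change of the 13. Atf4 itself was not called, with means of 641 CPM in dasatinib 1x cells and 570 CPM in parental cells.

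The count of risen ATF4 genes depended on every library, while the median log2 change of the list stayed within 0.173 to 0.196 when 1 library was left out. The number of members that rose was 5, 8 and 5 without dasatinib 1x A, B or C, and 0 without parental A and 0 without parental B. It was 23 when only the 5 compared libraries were fitted, and 2 with the pooled drug-free class. The calls of Slc7a5, Atf5 and Asns were lost without parental A (adjusted p = 0.0513, 0.0841 and 0.123) and without parental B (0.0748, 0.08 and 0.279), and that of Asns also without dasatinib 1x A or C (0.0737 and 0.0705). Their lowest adjusted p over all alternatives were 7.64e-09, 9.41e-14 and 4.83e-05, and the highest 0.604, 0.0841 and 0.839. In DMSO 1x 1 member of the list was called higher than in the parental line and 0 lower, and against DMSO 1x the dasatinib 1x lines had 3 members higher and 1 lower. Atf5 was among those 3, with 57.0 CPM in DMSO 1x (log2 change of dasatinib 1x over DMSO 1x 1.04, adjusted p = 0.0015). In dasatinib 16x lines 25 members of the list were called higher than in the parental line and 2 lower, where 14.1% and 12.3% of all tested genes were.

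**Figure D3:**
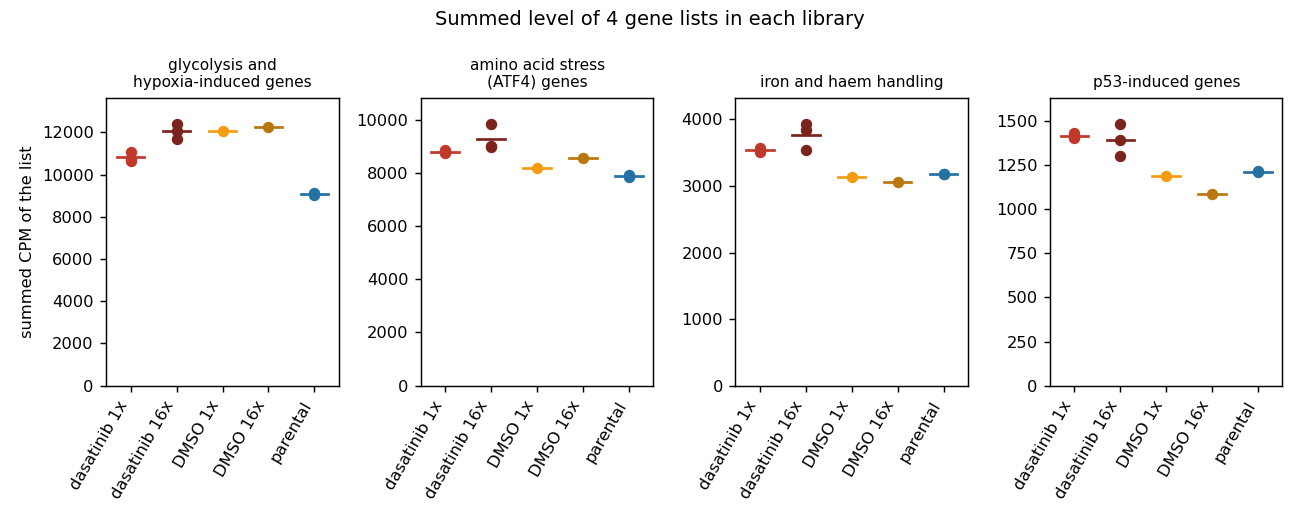
Summed CPM of 4 gene lists in each library, dasatinib lines on the left and the parental line on the right, with lines at group means and axes from 0. The glycolysis and hypoxia list stands above the parental line (9043 to 9153 CPM) in dasatinib 1x (10656 to 11091 CPM) and in DMSO 1x (12048 CPM) alike. The sums of the iron and haem and the p53 lists stand above the parental line in the dasatinib lines and not in the DMSO lines. Sums weigh abundant genes most. The median log2 change over the parental line of the iron and haem list was 0.07 in dasatinib 1x and 0.06 in DMSO 1x, and that of the p53 list 0.11 and -0.03.

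The region just before the start of these genes was searched for the letters that ATF4 and the hypoxia-inducible factors are known to bind. Shown are the 250 bases before the start of the 3 ATF4 list genes that rose and held TGATGNAA, a core of the site bound by ATF4 with C/EBP partners, and of Ldha as an example of a glycolysis gene with ACGTG, the core of the hypoxia response element. Sequences are from RefSeq on GRCm38.p6, 5′ to 3′ on the gene's strand, with the matched letters in capitals on either strand. The windows are chr6:7693210-7693459 on the minus strand for Asns, chr6:55037751-55038000 on the plus strand for Gars, chr11:120643749-120643998 on the minus strand for Pycr1 and chr7:46845554-46845803 on the plus strand for Ldha.
Asns: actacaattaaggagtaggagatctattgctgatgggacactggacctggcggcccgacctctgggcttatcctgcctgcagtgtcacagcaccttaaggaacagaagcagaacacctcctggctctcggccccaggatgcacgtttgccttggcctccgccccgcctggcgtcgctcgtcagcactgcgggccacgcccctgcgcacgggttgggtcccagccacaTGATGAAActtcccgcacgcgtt
Gars: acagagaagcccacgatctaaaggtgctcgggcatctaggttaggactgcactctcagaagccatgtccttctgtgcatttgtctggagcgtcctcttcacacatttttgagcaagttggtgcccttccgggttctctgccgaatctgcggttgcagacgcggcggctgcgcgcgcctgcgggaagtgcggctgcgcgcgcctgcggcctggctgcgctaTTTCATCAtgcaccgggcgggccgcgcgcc
Pycr1: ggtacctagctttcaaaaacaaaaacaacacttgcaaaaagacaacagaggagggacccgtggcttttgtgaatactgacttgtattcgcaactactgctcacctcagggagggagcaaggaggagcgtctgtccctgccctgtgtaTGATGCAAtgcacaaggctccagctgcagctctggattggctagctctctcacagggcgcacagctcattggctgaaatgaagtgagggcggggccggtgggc
Ldha: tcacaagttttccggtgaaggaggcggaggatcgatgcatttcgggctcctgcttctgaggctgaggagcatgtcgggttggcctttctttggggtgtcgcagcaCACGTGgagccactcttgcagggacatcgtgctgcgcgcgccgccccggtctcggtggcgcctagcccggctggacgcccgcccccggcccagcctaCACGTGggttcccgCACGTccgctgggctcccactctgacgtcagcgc

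TGATGNAA was found on either strand in 3 of the 12 risen ATF4 list genes that had a window in the table, in 3 of the 14 that were not called, and in 2.0% of the 8892 windows of tested genes. The match began 23 bases before the start in Asns, 30 in Gars and 103 in Pycr1. ACGTG was found in 5 of the 15 risen genes of the glycolysis and hypoxia list, in 6 of the 8 that were not called, and in 22.3% of the windows of tested genes. In Ldha it was found 5 times, where 4 are the overlapping strands of the palindrome CACGTG. A match to these letters is a description of the window and not of binding.

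Iron and haem genes changed in both directions. Hmox1, haem oxygenase 1, which breaks down haem and responds to oxidative stress, had 7.68, 8.26 and 7.18 CPM in dasatinib 1x A, B and C, against 2.96 and 2.55 CPM in parental A and B (log2 change 1.49 ± 0.14, adjusted p = 9.95e-05). Ftl1, the ferritin light chain that stores iron, had 966, 986 and 930 CPM in dasatinib 1x A, B and C, against 634 and 615 CPM in parental A and B (log2 change 0.62 ± 0.04, adjusted p = 1.53e-05). The receptor that imports transferrin-bound iron, Tfrc, had 828, 784 and 815 CPM in dasatinib 1x A, B and C, against 985 and 1001 CPM in parental A and B (log2 change -0.30 ± 0.04, adjusted p = 0.000975).

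The storage and breakdown genes thus stood higher and the importer lower in all 3 dasatinib 1x libraries, and these 3 genes kept their calls under every alternative run. Alas1, which starts haem synthesis, rose (log2 change 0.37 ± 0.08, adjusted p = 0.024) and Fech, which ends it, fell (log2 change -0.76 ± 0.16, adjusted p = 0.016). In all, 3 of 20 tested members rose and 2 fell (25%, beside 5.86% of all tested genes), with a median log2 change of 0.07. Fth1, the ferritin heavy chain, averaged 931 CPM in dasatinib 1x cells and 742 CPM in parental cells and was not called. In DMSO 1x 0 members of this list were called against the parental line in either direction, and Hmox1 (3.18 CPM) and Ftl1 (598 CPM) stood close to the parental level there. Against DMSO 1x the log2 changes in dasatinib 1x cells were 1.28 for Hmox1 and 0.68 for Ftl1 (adjusted p = 0.000746 and 2.11e-05). The call of Alas1 was lost without any 1 of the 5 libraries (adjusted p of 0.0705 to 0.251, over all alternatives 1.31e-05 to 0.251). That of Fech was lost without dasatinib 1x A or B (0.0699 and 0.0703) and without parental A or B (0.125 and 0.191), with 8.84e-05 the lowest of all alternatives.

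Of 26 tested genes that p53 induces, 4 rose and 1 fell (19.2%, beside 5.86% of all tested genes), with a median log2 change of 0.11. Bbc3 encodes the pro-death BCL2 protein PUMA and had 20.8, 21.4 and 20.5 CPM in dasatinib 1x A, B and C, against 13.2 and 13.0 CPM in parental A and B (log2 change 0.67 ± 0.08, adjusted p = 0.000807). Cdkn1a, the cell cycle inhibitor p21, had 71.1, 71.7 and 67.2 CPM in dasatinib 1x A, B and C, against 45 and 43.0 CPM in parental A and B (log2 change 0.67 ± 0.10, adjusted p = 0.00691). Btg2, an antiproliferative gene, had 5.31, 6.15 and 4.83 CPM in dasatinib 1x A, B and C, against 11.6 and 12.4 CPM in parental A and B (log2 change -1.15 ± 0.22, adjusted p = 0.0187).

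Bbc3 and Cdkn1a stood above and Btg2 below the parental level in every dasatinib 1x library. Cdkn1a also stood above the parental level in the lines without drug, at 53.9 CPM in DMSO 1x and 68.7 CPM in DMSO 16x. It was not called against DMSO 1x (log2 change 0.38, adjusted p = 0.0902), and with the pooled drug-free class its call was lost (adjusted p = 0.198). Ddit4, an mTOR inhibitor, and Gtse1, a p53 regulator of the cell cycle, rose by 0.24 and 0.14 on the log2 scale (adjusted p = 0.00406 and 0.041). The p53 gene, listed as Trp53, averaged 2.86 CPM in dasatinib 1x cells and 3.27 CPM in parental cells and was not called, and neither were Mdm2, Bax or Ccng1, at log2 changes of 0.13, 0.10 and 0.37. The count of members that rose was 1 without parental A and 1 without parental B, Bbc3 keeping its call under every alternative run. The calls of Cdkn1a, Ddit4, Btg2 and Gtse1 were lost without parental A (adjusted p = 0.0626, 0.0559, 0.12 and 0.231) and without parental B (0.106, 0.104, 0.186 and 0.339). Those of Btg2 and Gtse1 were also lost without dasatinib 1x A (0.0812 and 0.111) and C (0.0796 and 0.138), and that of Gtse1 without B (0.0516). Over all alternatives the adjusted p was 6.69e-12 to 0.198 for Cdkn1a, 0.000306 to 0.945 for Ddit4, 2.23e-07 to 0.188 for Btg2 and 0.00222 to 0.339 for Gtse1. Among all 9 tested pro-death BCL2 genes Bbc3 was the 1 called (11.1%), and of the 5 tested pro-survival genes 0 rose and 1 fell (20%). That one was Bcl2a1b, which is nearly identical to other Bcl2a1 copies, so its reads are uncertain.

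Cell cycle genes had a median log2 change of 0.0034 for S phase and replication and 0.02 for G2 and mitosis. Of 38 tested S phase and replication genes 0 were called by edgeR in either direction (3 higher and 6 lower at an unadjusted p under 0.05; 1 higher by DESeq2, 0 by limma-voom), and of 29 tested genes of G2 and mitosis 1 rose (Aurka, log2 change 0.15 ± 0.04, adjusted p = 0.0371). That call was lost without any one of the 5 libraries (adjusted p of 0.0741 to 0.302; range over all alternatives 0.002 to 0.302). Of 50 oxidative phosphorylation genes 0 were called by edgeR, with a median log2 change of 0.08 (22 higher and 0 lower at an unadjusted p under 0.05; 2 higher by DESeq2, 0 by limma-voom). Of 75 tested cytosolic ribosomal proteins 4 rose (Rpl5, Rpl6, Rpl21 and Rplp0) and 0 fell, which is 5.33%, beside the 3.01% of all genes that rose. The median log2 change of the 75 was 0.08, and 70 of them were above 0. In DMSO 1x their median over the parental line was 0.13. All 4 risen genes are placed on chromosome 5, which is described at the end, and the part of the chromosome in these rises was not tested. Without dasatinib 1x A, B or C the count was 2, 2 and 4, and it was 0 without parental A and 0 without parental B. Sterol biosynthesis had 0 genes higher and 2 lower of 23 (8.7%, beside 5.86% of all genes), with a median log2 change of -0.08. Against DMSO 1x its median was -0.18. Idi1 was among the 2, with a log2 change of -0.19 (adjusted p = 0.0267 by edgeR). Its call was lost without dasatinib 1x A, B or C (0.0539, 0.0578 and 0.102) and with the replicate block (0.0759). The call was also lost with the pooled drug-free class (0.0598), without parental A and without parental B. The log2 change of Idi1 was -0.21 to -0.16 when 1 library was left out.

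**Figure D4:**
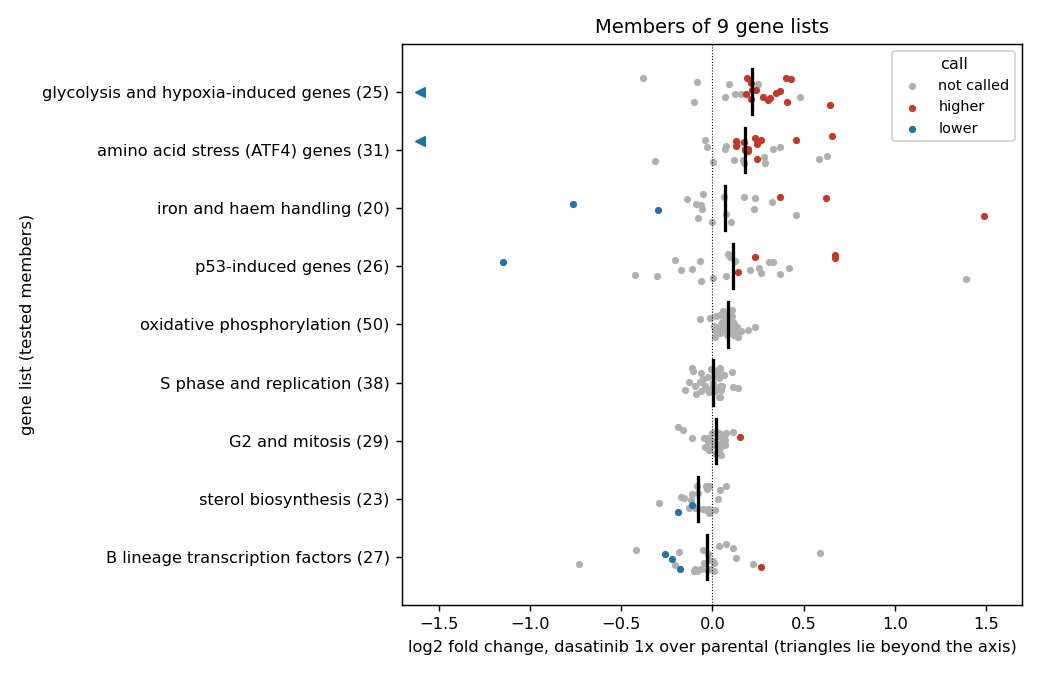
Log2 fold change of dasatinib 1x over parental cells for each tested member of 9 gene lists, coloured by call, with the list median as a vertical bar and the number of tested members in parentheses. The medians were 0.22 for glycolysis and hypoxia and 0.18 for ATF4 genes, against 0.08 for oxidative phosphorylation and values near 0 for S phase and mitosis; triangles mark Slc2a3 and Stc2, which fell at low level.

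The lists of BCR-ABL1 outputs and of signalling proteins held small numbers of tested genes, to be read beside the 5.86% called among all genes. Of 16 tested STAT5-induced genes 1 rose and 2 fell (18.8%). Ccnd2, cyclin D2, had 589, 618 and 582 CPM in dasatinib 1x A, B and C, against 507 and 497 CPM in parental A and B (log2 change 0.25 ± 0.04, adjusted p = 0.00447). Socs3, a feedback inhibitor of cytokine receptors, had 11.1, 11.6 and 12.7 CPM in dasatinib 1x A, B and C, against 15.4 and 15.9 CPM in parental A and B (log2 change -0.41 ± 0.08, adjusted p = 0.0105). Il2ra, the interleukin 2 receptor alpha chain, fell by 1.05 ± 0.25 on the log2 scale (adjusted p = 0.0387). All 3 calls were lost without parental A (adjusted p = 0.0626, 0.0869 and 0.219) and without parental B (0.114, 0.166 and 0.252), and that of Il2ra also without dasatinib 1x A, B or C (0.124, 0.0794 and 0.115). Over all alternatives their adjusted p ranged over 2.26e-07 to 0.742, 0.000907 to 0.166 and 8.06e-06 to 0.252. Ccnd2 stood at 673 and 926 CPM in the DMSO lines, above the dasatinib 1x lines, and its direction reversed with the pooled drug-free class (log2 change -0.13, adjusted p = 0.742).

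Of 22 tested genes of ERK output and feedback 1 rose (Junb, log2 change 0.20) and 1 fell (Epha2), which is 9.09%. The call of Junb was lost without any one of the 5 libraries (adjusted p of 0.0563 to 0.259), with DESeq2 (0.0659), with the replicate block (0.0718) and with the pooled drug-free class (0.558), the lowest of all alternatives being 0.00388. That of Epha2 was lost without parental B (0.0524) and with the drug-free class (0.27, the highest, with 2.3e-05 the lowest). Of 27 tested FOXO-induced genes 1 rose (Bnip3) and 2 fell, among them Rag1 (11.1%). Among 18 tested ABL and SRC family kinases and their regulators 0 rose and 2 fell (11.1%). Among these was Yes1, a SRC family kinase under 1 CPM in every library compared (adjusted p = 0.0476 by edgeR). Its call was lost with DESeq2 (0.154), the replicate block (0.0735) and the pooled drug-free class (0.12). It was also lost without dasatinib 1x B or C (0.163 and 0.153), and without parental A or B. Of 8 receptor tyrosine kinases that passed the filter, out of 38 listed, 0 rose and 3 fell (37.5%), and 0 to 3 fell when 1 library was left out. Ryk, a WNT receptor, had 6.16, 2.94 and 9.52 CPM in dasatinib 1x A, B and C, against 40.5 and 39.6 CPM in parental A and B (log2 change -2.69 ± 0.44, adjusted p = 0.0311). Without drug Ryk also stood below the parental level, at 26.4 CPM in DMSO 1x and 13.7 CPM in DMSO 16x. Its call was lost without dasatinib 1x A (0.114), parental A (0.174) or parental B (0.202), over a range of adjusted p of 0.000549 to 0.202. The other two were Epha2 and Ltk, under 4 CPM in every library compared. Of 28 cytokine receptor and JAK-STAT genes 1 rose (Stat5a) and 2 fell (Il2ra and Il6ra), which is 10.7%, and of 21 NF-kB and TNF family genes 0 were called by edgeR (2 higher at an unadjusted p under 0.05; 2 higher by DESeq2, 0 by limma-voom).

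B cell genes were read beside the same 5.86%. Of the 10 B lineage markers 0 were called by edgeR (2 lower at an unadjusted p under 0.05; 1 lower by DESeq2, 0 by limma-voom). Of 27 tested genes of pre-B cell receptor signalling 2 rose (Plcg2 and Vav1) and 3 fell (Bank1, Prkcb and Rasgrp1), which is 18.5%, and of 27 B lineage transcription factors 1 rose and 3 fell (14.8%). When 1 library was left out, 0 to 1 pre-B receptor genes rose and 0 to 2 fell, and 0 to 1 of the transcription factors rose and 0 to 3 fell. Irf8, a factor of B cell and myeloid development, had 413, 417 and 426 CPM in dasatinib 1x A, B and C, against 352 and 345 CPM in parental A and B (log2 change 0.26 ± 0.05, adjusted p = 0.00872). Bcl11a, needed for early B cells, had 131, 137 and 135 CPM in dasatinib 1x A, B and C, against 159 and 163 CPM in parental A and B (log2 change -0.26 ± 0.04, adjusted p = 0.0024). Foxo1 and Ikzf3, factors of B cell differentiation, fell by 0.18 and 0.22 on the log2 scale. Without parental A the calls of Irf8, Foxo1 and Ikzf3 were lost (adjusted p = 0.0929, 0.197 and 0.0933), and without parental B those 3 and Bcl11a (0.157, 0.19, 0.141 and 0.0748). Foxo1 also lost its call without dasatinib 1x B or C (0.0763 and 0.0584) and reversed with the pooled drug-free class (log2 change 0.13, adjusted p = 0.774). The lowest adjusted p over all alternatives were 9.43e-07, 0.000165, 0.000188 and 4.04e-06 for Irf8, Foxo1, Ikzf3 and Bcl11a.

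Of 14 tested genes of antigen receptor recombination 0 rose and 2 fell (14.3%). Rag1, one of the recombinase subunits, had 21.3, 16.6 and 17.6 CPM in dasatinib 1x A, B and C, against 73.7 and 75.8 CPM in parental A and B. Its groups were far apart, but the call was near the threshold (log2 change -2.02 ± 0.38, adjusted p = 0.0461) and was lost without any one of the 5 libraries (adjusted p of 0.124 to 0.295; range over all alternatives 3.64e-07 to 0.295). DMSO 1x held 56.9 CPM and DMSO 16x 20.4 CPM of Rag1. Zap70, a kinase of T cell receptor signalling that some B cell leukaemias also express, had 21.9, 20.6 and 18.5 CPM in dasatinib 1x A, B and C, against 12.9 and 13.5 CPM in parental A and B (log2 change 0.62 ± 0.09, adjusted p = 0.00155). It stood at 10.3 and 8.78 CPM in the DMSO lines. Zap70 was the 1 T cell marker called of 3 tested; the list summed to 21.1 to 24.9 CPM in dasatinib 1x cells and 14.8 to 15.5 CPM in parental cells, with Cd3e, Cd4 and Cd8a at 0.

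The lists of immune, transport, adhesion and cell cycle genes follow, with the share of tested members called. Of 26 tested interferon-induced genes 2 rose (Bst2 and Samd9l) and 1 fell (11.5%). The one that fell was Ddx58, the RNA sensor RIG-I, with 3.70, 4.22 and 2.74 CPM in dasatinib 1x A, B and C, against 7.79 and 7.11 CPM in parental A and B. Tap2, which carries peptides to MHC class I, was the 1 of 14 genes of class I and its assembly that rose (7.14%; log2 change 0.33 ± 0.05, adjusted p = 0.00413), and of 10 class II genes 0 were called by edgeR (2 higher and 1 lower at an unadjusted p under 0.05; 0 by DESeq2, 1 lower by limma-voom). Of 10 tested ABC transporters 1 rose and 1 fell (20%). The one that rose was Abcb1b, a P-glycoprotein gene, with 73.0, 70.4 and 69.3 CPM in dasatinib 1x A, B and C, against 56.9 and 60.7 CPM in parental A and B (log2 change 0.27 ± 0.05, adjusted p = 0.0105). Abcb1b is a chromosome 5 gene, and the close copy Abcb1a can share its reads. The calls of Tap2, Abcb1b and Ddx58 were lost without parental A (adjusted p = 0.0724, 0.178 and 0.0731) and without parental B (0.0899, 0.0632 and 0.0515), their lowest adjusted p over all alternatives being 1.99e-06, 0.000198 and 2.24e-05.

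Adhesion and homing genes had 2 rises (Cd44 and Selplg) and 2 falls, Itgam among them, of 26 tested (15.4%), and the MYC and MAX network 0 rises and 3 falls (Mga, Mlxip and Mycn) among 11 (27.3%). The count of falls in the MYC and MAX network was 0 to 2 when 1 library was left out. The call of Mlxip was lost without dasatinib 1x A, B or C (adjusted p = 0.0827, 0.133 and 0.0896) and without parental A or B (0.15 and 0.396), over a range of 0.000752 to 0.758 across the alternatives. That of Mycn was lost without dasatinib 1x A or B (0.065 and 0.0648) and without parental A or B (0.182 and 0.125), over a range of 7.31e-05 to 0.182. Cyclins, CDKs and their inhibitors had 2 rises (Ccnd2 and Cdkn1a) and 0 falls among 20 (10%), heat shock and immediate early genes 2 rises (Fosb and Junb) and 0 falls among 15 (13.3%), and DNA methylation genes 0 rises and 1 fall (Tet1) among 16 (6.25%). The calls of Fosb, Tet1, Selplg, Bst2 and Stat5a were each lost without parental A and without parental B, and their adjusted p reached 0.722, 0.243, 0.445, 0.255 and 0.157 over the alternatives, with lowest values of 0.00454, 0.00377, 1.12e-05, 0.000101 and 6.09e-05. Of 3 tested myeloid markers 0 rose and 1 fell (Itgam, under 1 CPM), and 0 of the stromal markers passed the filter.

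The 3 dasatinib 1x libraries differed among themselves, and library B stood apart. At 5 CPM or more, 21 genes were at least 2-fold apart between libraries A and B and 21 between B and C, against 0 between A and C and 0 between parental A and B. Between a dasatinib 1x and a parental library it was 88 to 111 genes. Library B held 14 genes at least 2-fold above both others. Of these, 9 were replication-dependent histone genes, whose transcripts lack a poly(A) tail, and others were the non-coding RNAs Rmrp and Rpph1. Rmrp, the RNA of an RNase complex, had 0.0316, 17.9 and 0.126 CPM in dasatinib 1x A, B and C, against 0 and 0.501 CPM in parental A and B. The summed level of the histone list was 46.3 to 176 CPM in dasatinib 1x cells and 51.8 to 51.9 CPM in parental cells, and 0 of its 41 tested members were called by edgeR, DESeq2 or limma-voom (1 higher at an unadjusted p under 0.05). Its median log2 change was 1.23 with all libraries and -0.21 without library B. The share of RNA without a poly(A) tail in each library was not tested.

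Library B also held 5 genes at least 2-fold below both others, App, Eif5a2, Nt5e, Phlda3 and Ryk. App, the amyloid precursor protein, had 12.1, 4.60 and 12.2 CPM in dasatinib 1x A, B and C, against 3.74 and 3.24 CPM in parental A and B, so that library B lay near the parental level. Eif5a2, a translation factor, had 12.7, 5.27 and 14.6 CPM in dasatinib 1x A, B and C, against 39.3 and 38.1 CPM in parental A and B, and library B lay furthest from the parental level. Nt5e, the ectonucleotidase CD73, had 7.46, 2.31 and 5.24 CPM in dasatinib 1x A, B and C, against 5.27 and 4.98 CPM in parental A and B. Libraries A and C had 0 genes of this size that set them apart from both others. In the same-lettered dasatinib 16x libraries A, B and C, App had 15.6, 1.1 and 35.1 CPM and Nt5e 5.93, 0.786 and 1.5 CPM, B being the lowest for these genes there too, while Eif5a2 had 0, 0.0246 and 0 CPM. The labels used here do not say that a letter marks the same culture at both steps, and these differences were not tested.

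Genes that rose were unevenly spread over the chromosomes. Of 732 tested genes that a GRCm38.p6 table places on chromosome 5, 65 rose (8.88%) and 2.32% fell, compared with 2.8% and 3.03% of the 10463 genes on other chromosomes. The rises were small, with a median of 1.15-fold among the 65 genes. Over all chromosome 5 genes the median log2 change was 0.07, which is 1.05-fold. Of these genes 74% were above 0, compared with 50.3% on other chromosomes. The median difference from the parental mean was 0.074, 0.074 and 0.072 in dasatinib 1x A, B and C on the log2 scale. In the DMSO lines it lay on the other side, at -0.16 for DMSO 1x and -0.46 for DMSO 16x. DNA copy number was not measured in these files.

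**Figure D5:**
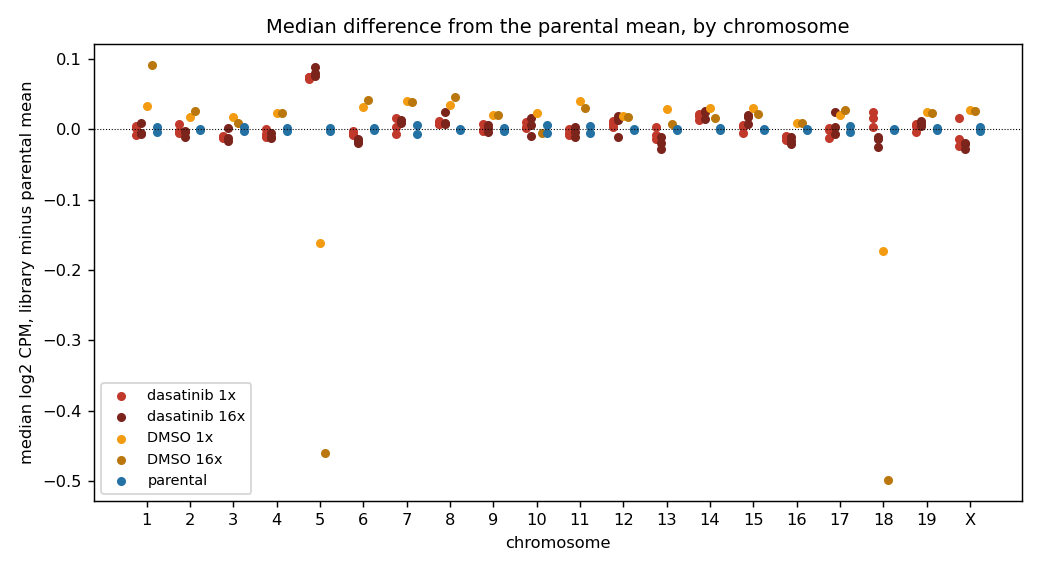
Median over genes of log2 CPM minus the parental mean, for each chromosome and library, coloured by group with dasatinib 1x leftmost and the parental line rightmost. On chromosome 5 the dasatinib 1x libraries lie at 0.072 to 0.074 and the DMSO lines at -0.16 and -0.46; chromosome 18 also lies low in the DMSO lines, with 0.02 for dasatinib 1x over parental.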

How the data were processed

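RNA-seq counts per gene of 10 libraries were used as the authors deposited them, raw and not normalized. Per the submitters' processing notes the tools were CASAVA 1.7.0, Trimmomatic 0.33, TopHat2 2.0.12, BWA 0.7.10, SAMtools, HTSeq 0.6.1 and DESeq, with build mm9; their roles and the strand setting are not given in the sources used here. Overlapping, antisense and near-identical genes therefore cannot be told apart. The libraries held 29049760 to 45813092 counts, and PCR copies are not independent molecules.

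Genes were kept by filterByExpr (minimum count 10) on the 5 dasatinib 1x and parental libraries. The robust quasi-likelihood fit of edgeR 4.0.16 (R 4.3.3) was run on the counts with TMM scaling, in a fit of 5 groups over all 10 libraries, which share one spread (5 residual degrees of freedom, biological coefficient of variation 7.24%), and adjusted by Benjamini and Hochberg at 0.05. A single DMSO library is assumed to vary like the other groups. CPM use TMM-effective library sizes, and log2 CPM a prior count of 2. Procedures were tested on simulated data.

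Genes are named by a rule: the top 10 and bottom 10 called genes by log2 change that averaged at least 5 CPM in a group, without overlap (predicted genes left out), the 2 called members of each of 36 lists with the smallest p, Abl1, and for each line the 3 genes highest and lowest relative to the nearer of the other lines; those whose role is sure are described, and some genes are not reported here. Other list members were named after their values were seen. Members and lists were chosen with earlier results of these data known. Chromosomes come from a GRCm38.p6 RefSeq table by gene name, and no coordinates of the counts' build are given. Alternatives were DESeq2 1.42.0, limma-voom (limma 3.58.1), RLE scaling, testing without a filter, a replicate block, only the 5 compared libraries, a pooled drug-free class of parental and DMSO libraries, and leaving out each library. The comparisons of dasatinib 16x with parental and with 1x, of DMSO 1x with parental, and among chromosomes came from the same fit or from log2 CPM, the first 3 added after seeing the data.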

Additional observations from a re-analysis of the deposited data

Results flagged for a closer look

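Of the 20 genes with the highest and lowest changes at 1x, 8 also differed between the dasatinib 16x and 1x lines (3 libraries each). The quasi-likelihood test of edgeR was used, with the same dasatinib 1x libraries. The log2 change of 16x over 1x was -5.65 for Gng12 and -3.24 for Celsr1 (adjusted p = 7.53e-05 and 7.22e-05), so that both fell further at the higher step. It was -1.20 for Pde10a, 0.36 for Plch1, 0.62 for Hmox1, 0.81 for Slc22a8, 0.97 for B3galt5 and 2.18 for Actn1 (adjusted p = 0.00183, 0.00172, 0.00318, 0.0119, 0.0247 and 0.0431). Plch1, Hmox1, Slc22a8 and B3galt5 thus rose further. Pde10a and Actn1 moved back toward the parental level, with log2 changes of 16x over parental of 0.27 and -1.36.

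Chromosome 5 was picked out because every dasatinib 1x library lay on one side of the parental mean and both DMSO lines on the other. Dasatinib 1x A, B and C had median log2 differences of 0.0742, 0.0741 and 0.0718, compared with -0.161 in DMSO 1x and -0.46 in DMSO 16x. The difference was not tested.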

How the results depend on the processing

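The count of 711 genes called between dasatinib 1x and parental cells was 707 with RLE scaling, 704 with DESeq2, 636 with limma-voom and 916 without a filter. It was 2176 in a fit of only the 5 compared libraries and 255 with the pooled drug-free class; these fits hold other libraries, and the cause was not tested. Leaving out 1 library gave 152 to 410, with fewer samples. Of the 711 genes, 701 were called in the same direction with RLE scaling, 545 with DESeq2, 600 with limma-voom, 709 with only the 5 libraries and 230 with the drug-free class. The deviations of same-lettered dasatinib 1x and parental libraries correlated at -0.012 for A and 0.0032 for B. Whether letters pair the samples cannot be decided from these values, since only 2 parental libraries were compared. Pairing between the dasatinib 1x libraries and those of the later step was not tested. With the replicate block 545 genes were called. Against DMSO 1x the count of 1625 ranged from 1105 to 1830 over all its alternatives. With the drug-free class Mlxip, Ccnd2, Ddit4, Ldha and Foxo1 reversed (log2 changes 0.10, -0.13, -0.020, -0.063 and 0.13, adjusted p = 0.758, 0.742, 0.945, 0.823 and 0.774). Of the 62 named genes called, 44 lost the call without at least 1 library and 49 under at least 1 alternative. With 2 parental libraries, small changes near the threshold and genes under 1 CPM are the least certain.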
